A study of Mus musculus with 7 samples.

Results

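The NRF2 pathway and antioxidant enzyme genes described here are Nfe2l2, Nqo1, Gclm, Gclc, Txnrd1, Srxn1, Prdx1, Prdx5, Sod2 and Gpx1. They were chosen by symbol and are 10 of the 16047 genes in an RPKM table of liver neutrophils (RPKM, the reads of a gene scaled to a kilobase of transcript and to a million-read library). All 10 were above 0 in all 7 libraries and passed the requirement of a mean of at least 1 RPKM, which 9594 genes met. None of the 10 differed between MC-21-treated and PBS-treated mice at an adjusted p under 0.05, which 0.625% of all genes tested reached. For 8 of the 10 the 95% interval of the difference lay within a 2-fold change in either direction, as for 74.7% of all genes tested. The exceptions were Srxn1, whose 3 MC-21 values all lay below the 4 PBS values without passing the adjusted test, and Nqo1, which rested on 1 to 12 reads per library.

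Acetaminophen-induced liver injury (AILI) was given to C57BL/6 mice, and neutrophils were sorted from the livers 24 h later. The males, 8 to 12 weeks old by the study's methods, were fasted for 12 h and given 300 mg/kg of acetaminophen. The 4 control mice (PBS replicates 5 to 8) received PBS, and the other 3 (MC-21 replicates 2 to 4) received 400 µL of medium conditioned with the anti-CCR2 antibody MC-21 at 29 µg/mL. MC-21 removes circulating Ly6C-high monocytes, and injections began 12 h before acetaminophen and were repeated every 24 h. All mice therefore had AILI, and an uninjured group and a control antibody were not analysed here. From each liver 50000 cells of the gate CD11b+Ly6CloCX3CR1-GFP-Ly6G+ were sorted, although the strain label names no GFP allele. The comparison asks how neutrophil transcripts differ in an injured liver that few Ly6C-high monocytes enter.

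The depth read from the table was about 1591600 to 3961500 reads per library, lowest in MC-21 replicate 3. The 12 neutrophil markers, such as S100a8, S100a9 and Csf3r, summed to 18020 to 30460 RPKM in PBS and 27390 to 40800 RPKM in MC-21. S100a9 alone had 12275 to 20590 RPKM in PBS and 18142 to 25041 in MC-21, while Ltf stayed at 1.06 to 10.2 and 1.57 to 3.78. Of the 12, 5 were lower and 7 higher in MC-21, and 1 passed the adjusted test, in the higher direction. Cd177 did not overlap, at 7.36 to 18.7 RPKM in PBS and 29.9 to 42.7 in MC-21. Markers of monocytes and macrophages summed to 580 to 697 RPKM in PBS and 302 to 361 RPKM in MC-21 with no overlap. Of these 12 markers, 11 were lower in MC-21 and 5 passed the adjusted test, and the defining gene Ccr2 ran from 1.91 to 3.26 RPKM in PBS and from 0 to 0.390 RPKM in MC-21. Summed markers of the other cell types overlapped between the groups, with 56.7 to 85.0 and 34.97 to 65.3 RPKM for Kupffer cells, 1565 to 3185 and 1709 to 2735 for endothelium, 1105 to 1477 and 1206 to 1319 for hepatocytes, 10.5 to 20.7 and 6.49 to 12.4 for lymphocytes, 10.4 to 19.5 and 8.82 to 15.6 for the 2 of 4 eosinophil markers in the table, and 163 to 429 and 179 to 219 for erythroid cells and platelets. Single markers did not all follow their sum, as Pf4 of platelets ran from 75.0 to 244 RPKM in PBS and from 36.7 to 60.9 in MC-21. Among all these markers 0 were at 0 in every library. In bulk samples of this kind, fewer cells of a type and less RNA per cell cannot be told apart.

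NRF2, the protein of Nfe2l2, is a transcription factor that KEAP1 holds in the cytoplasm and marks for degradation. Oxidants and electrophiles, among them the reactive metabolite of acetaminophen, modify KEAP1, and NRF2 then enters the nucleus, pairs with a small MAF protein and binds antioxidant response elements (AREs). Its targets make glutathione, regenerate thioredoxin and detoxify quinones. Neutrophils produce superoxide with the NADPH oxidase, and superoxide dismutases, glutathione peroxidases and peroxiredoxins remove superoxide and peroxides. Prdx5, Sod2 and Gpx1 are antioxidant enzymes that are not defined by NRF2 alone, and Sod2 is widely known as a target of NF-κB.

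The promoter windows of these genes show which of them carry letters of the kind NRF2 binds close to a transcription start. RefSeq windows from 250 bases before to 50 bases after a transcription start (build GRCm38.p6) were given for 9 of the 10 genes, all but Gclc. The ARE core TGACNNNGC, searched on both strands, was found in 5 of these 9 genes and in 14.0% of 27025 genes with windows (12.4% of 32851 windows). The fuller NRF2-MAF element TGANTCAGC was found in Srxn1 and Prdx1 and in 1.37% of all genes (1.19% of windows). In Prdx1 the same bases match both patterns. The following stretches are shown because they hold the matches that lie before the start, written 5′ to 3′ on the gene's strand with the match in capitals.
Nfe2l2, chr2:75704870-75704913, minus strand: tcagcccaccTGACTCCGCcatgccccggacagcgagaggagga
Gclm, chr3:122245398-122245456, plus strand: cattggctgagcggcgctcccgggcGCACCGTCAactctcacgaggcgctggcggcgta
Txnrd1, chr10:82859089-82859147, plus strand: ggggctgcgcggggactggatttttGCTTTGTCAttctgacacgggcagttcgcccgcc
Srxn1, chr2:152105454-152105512, plus strand: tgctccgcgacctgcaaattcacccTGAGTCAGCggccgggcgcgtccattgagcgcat
Prdx1, chr4:116685441-116685499, plus strand: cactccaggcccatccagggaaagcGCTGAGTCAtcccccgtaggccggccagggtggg
The match began 240 bases before the start in Nfe2l2, 134 in Gclm, 133 in Prdx1, 92 in Txnrd1 (at 1 of its starts) and 45 in Srxn1. In Gclm, Txnrd1 and Prdx1 it reads on the opposite strand, so the capitals show its complement. Srxn1 also has an ARE core after its start. A match is a run of letters and not a measured binding site. Bases outside the windows were not searched, so a gene without a match may still carry one elsewhere.

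The levels of the 10 genes ran from near the top of the table to its lower ranks (the plot of RPKM by library). In any 1 library at least 99.58% of the genes in the table were lower than Gpx1, and 29.3% to 50.3% were lower than Nqo1. By mean RPKM the order was Gpx1, Prdx5, Gclm, Nfe2l2, Sod2, Txnrd1, Srxn1, Prdx1, Gclc and Nqo1. Gpx1 stood 11.9 times above Prdx5 and Gclc 7.77 times above Nqo1 in mean RPKM, each without overlap of their 7 values. Prdx5 was likewise above Gclm (2.14 times), Sod2 above Txnrd1 (1.51 times) and Txnrd1 above Srxn1 (2.38 times) in every library. The neighbours Gclm and Nfe2l2, Nfe2l2 and Sod2, Srxn1 and Prdx1, and Prdx1 and Gclc overlapped in their RPKM and changed places between libraries. The order by RPKM depends on the length each value is divided by, and in 3′ libraries reads come mainly from the end of a transcript whatever its length. In mean reads scaled to a million-read library (RPM), Nfe2l2 came after Gpx1 with 155, followed by Sod2 (141), Txnrd1 (98.1), Gclm (95.9), Prdx5 (68.0), Gclc (29.8), Srxn1 (28.8), Prdx1 (12.7) and Nqo1 (1.74). Prdx5, whose short transcript raises its RPKM, thus moved from the second place to the sixth. No whole reads were recovered for Gpx1, and its RPM is its RPKM times the annotated length of 847 bases.

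**Figure D1:**
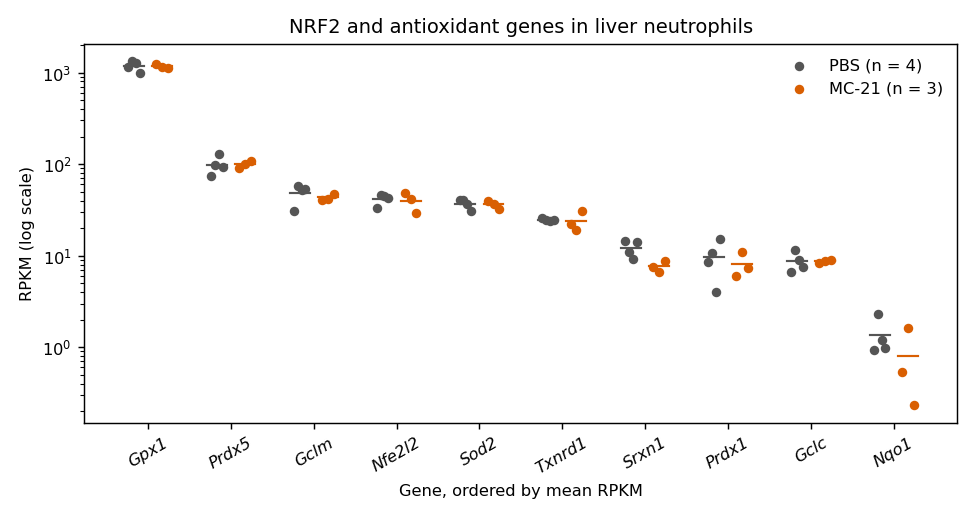
RPKM (log axis) of the 10 genes, in the order of their mean level, for each of the 4 PBS and 3 MC-21 libraries, with points for libraries and bars for group means. Gpx1 runs from 980 to 1331 RPKM and Nqo1 from 0.232 to 2.32 RPKM, and only for Srxn1 do the groups not overlap.

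The regulator itself was well expressed. Nfe2l2 (ENSMUSG00000015839.6, mm9 chromosome 2, 75513570 to 75542698, minus strand) had 33.0, 45.8, 45.0 and 42.2 RPKM in PBS replicates 5 to 8 and 48.0, 41.5 and 29.2 RPKM in MC-21 replicates 2 to 4. MC-21 held both the highest and the lowest library, so the groups overlapped fully. The means were 41.5 ± 5.88 (SD, n = 4) and 39.6 ± 9.56 RPKM (SD, n = 3). The log2 difference, MC-21 minus PBS on log2(RPKM + 1) as for all differences below, was −0.08 (SE 0.20, 95% interval −0.53 to 0.36, limma adjusted p = 0.872). At least 88.2% of the genes in the table had a lower RPKM in each library. NRF2 activity is set largely by the stability of the protein, which a transcript level does not measure.

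Glutathione synthesis begins with glutamate-cysteine ligase, whose catalytic subunit is encoded by Gclc and whose modifier subunit is encoded by Gclm. Gclm (ENSMUSG00000028124.7, chromosome 3, 121948475 to 121972902) had 31.1, 58.0, 51.7 and 53.5 RPKM in PBS and 40.8, 41.2 and 47.7 RPKM in MC-21. PBS replicate 5 was the lowest library and the other 3 PBS libraries were the highest, with the MC-21 values between them. The log2 difference was −0.13 (95% interval −0.61 to 0.36, limma adjusted p = 0.817). Without PBS replicate 5 it was −0.33 and the groups no longer overlapped, and the gene still had no adjusted p under 0.05. The share of all genes tested without overlap was not computed for that setting. Gclc (ENSMUSG00000032350.8, chromosome 9, 77602342 to 77642292) had 6.65, 11.6, 8.996 and 7.44 RPKM in PBS and 8.41, 8.80 and 9.02 RPKM in MC-21. The MC-21 values spread over a narrow range inside that of PBS, and the log2 difference was 0.04 (95% interval −0.41 to 0.49, limma adjusted p = 0.949). The ratio of Gclm to Gclc RPKM was 4.67 to 7.19 in PBS and 4.69 to 5.29 in MC-21 (two-sided exact permutation test, p = 0.400), so that the modifier transcript exceeded the catalytic one in all 7 libraries.

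Thioredoxin reductase, sulfiredoxin and peroxiredoxins form a chain that reduces peroxides. Txnrd1, the cytosolic reductase that regenerates thioredoxin (ENSMUSG00000020250.8, chromosome 10, 82296696 to 82360469), had 25.5, 24.7, 23.9 and 24.4 RPKM in PBS and 22.4, 19.2 and 30.7 RPKM in MC-21. The 4 PBS values lay within a coefficient of variation (CV) of 2.60%, while the MC-21 libraries fell on both sides of them. The log2 difference was −0.05 (95% interval −0.45 to 0.34, limma adjusted p = 0.912). Counting error over the 7 libraries alone gives Txnrd1 a CV of 6.23%, so the closeness of the PBS values was below the precision of their reads. Its substrate thioredoxin, Txn1, was abundant, with 905 ± 167 RPKM in PBS (SD, n = 4) and 875 ± 82.5 RPKM in MC-21 (SD, n = 3), and the ratio of Txn1 to Txnrd1 RPKM ran from 26.5 to 50.4 over the libraries. The Txnrd1 transcript is the longer, and in mean RPM the levels were closer, at 938 for Txn1 and 98.1 for Txnrd1.

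Srxn1, the sulfiredoxin that restores over-oxidised 2-Cys peroxiredoxins, had the largest difference of the 10 genes. It lies on chromosome 2 (ENSMUSG00000032802.7, 151931252 to 151937112, plus strand). Its levels were 14.4, 10.9, 9.23 and 14.1 RPKM in PBS and 7.57, 6.70 and 8.82 RPKM in MC-21. All 3 MC-21 libraries lay below all 4 PBS libraries, by a small margin between PBS replicate 7 and MC-21 replicate 4. The means were 12.2 ± 2.52 (SD, n = 4) and 7.70 ± 1.07 RPKM (SD, n = 3). The log2 difference was −0.58 (SE 0.20, 95% interval −1.03 to −0.13), which is 0.667-fold with an interval of 0.489 to 0.911. The unadjusted limma p was 0.0163 and the adjusted p was 0.241, and the two-sided exact permutation test gave p = 0.0571, where 0.0286 is the smallest value that 4 against 3 libraries allow. Srxn1 was the 1 gene of the 10 with an unadjusted p under 0.05 (14.7% of all genes tested had one) and the 1 gene without overlap of the groups (13.3% of all genes tested, 10.2% with MC-21 lower).

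The value of Srxn1 rested on 112, 102, 69 and 157 reads in PBS and 76, 30 and 69 reads in MC-21, as recovered from the RPKM steps. In RPM these were 40.5, 30.6, 25.9 and 39.6 in PBS and 21.3, 18.9 and 24.8 in MC-21. In these units too the lowest PBS library was above the highest MC-21 library, but the counting intervals of PBS replicates 6 and 7 overlapped those of MC-21 (the plot of RPM). A voom fit of the recovered reads gave a log2 difference of −0.63 (adjusted p = 0.280). With quantile normalization or median centring, the groups overlapped. The summed monocyte and macrophage markers separated the same libraries, at 580 to 697 RPKM in PBS and 302 to 361 RPKM in MC-21, and their part in the Srxn1 values was not tested.

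Prdx1, the cytosolic peroxiredoxin that Srxn1 repairs (ENSMUSG00000028691.6, chromosome 4, 116358149 to 116373427), had 8.42, 10.8, 3.98 and 15.3 RPKM in PBS and 5.93, 11.1 and 7.36 RPKM in MC-21. The PBS libraries held both the highest and the lowest value, from 15 and 86 reads in PBS replicates 7 and 8. The log2 difference was −0.14 with a wide interval of −0.98 to 0.71 (limma adjusted p = 0.893). The CV over 7 libraries was 41.9%, against 18.4% from counting error. A stretch on mm9 chromosome 16 (48218934 to 48219322) is 98.2% identical to the 3′ end of a Prdx1 transcript over 389 bases, and since the handling of reads with several matches is not given, the level of Prdx1 is uncertain. The ratio of Srxn1 to Prdx1 overlapped between the groups, at 0.920 to 2.32 in PBS and 0.605 to 1.28 in MC-21 (two-sided exact permutation test, p = 0.314).

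Prdx5, a peroxiredoxin found in mitochondria, peroxisomes and cytosol (ENSMUSG00000024953.9, chromosome 19, 6981187 to 6984596, minus strand), had 74.1, 98.6, 128 and 92.8 RPKM in PBS and 89.9, 99.5 and 109 RPKM in MC-21. All MC-21 values lay inside the PBS range. The log2 difference was 0.04 (95% interval −0.38 to 0.46, limma adjusted p = 0.942). Prdx5 was thus 6.06 to 32.1 times as high as Prdx1 in RPKM, a ratio that the uncertainty of Prdx1 and the short Prdx5 transcript both enter, and the mean RPM were 68.0 for Prdx5 and 12.7 for Prdx1.

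**Figure D2:**
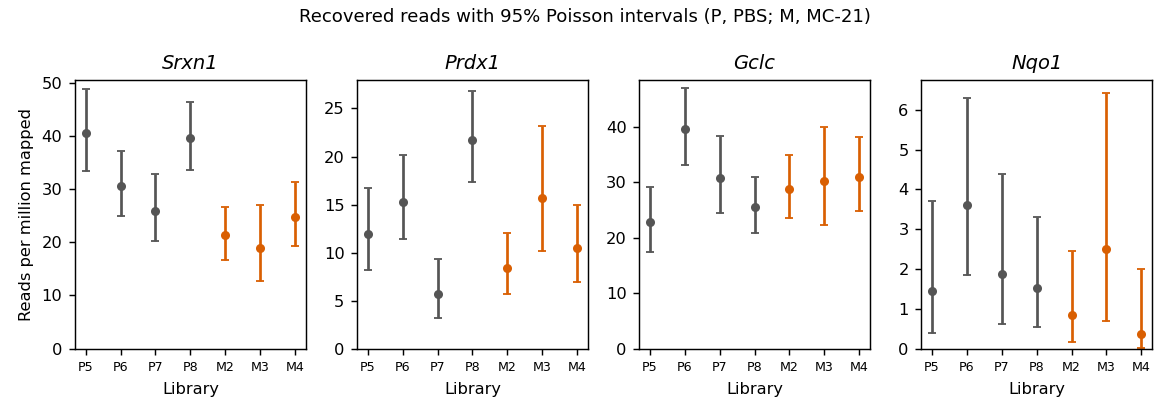
RPM (linear axis from 0) with 95% Poisson intervals, which cover counting error only, for Srxn1, Prdx1, Gclc and Nqo1 in PBS libraries 5 to 8 (P, grey) and MC-21 libraries 2 to 4 (M, orange). The Srxn1 points of MC-21 (18.9 to 24.8) lie below those of PBS (25.9 to 40.5), with intervals that overlap those of PBS replicates 6 and 7 but not of 5 and 8, and the Nqo1 intervals are widest for their level, at 1 to 12 reads.

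Nqo1, the quinone reductase that is widely used as a reporter of NRF2 activity, was barely detected in these neutrophils. Nqo1 (ENSMUSG00000003849.8, chromosome 8, 109912125 to 109927106, minus strand) had 0.932, 2.32, 1.21 and 0.976 RPKM in PBS and 0.541, 1.62 and 0.232 RPKM in MC-21. These are 4, 12, 5 and 6 reads in PBS and 3, 4 and 1 reads in MC-21. Replicates 2 and 4 of MC-21 were the lowest libraries and replicate 3 of MC-21 the second highest, so the groups overlapped. The log2 difference was −0.43 (95% interval −1.14 to 0.28, limma adjusted p = 0.563), a scale that understates changes of low genes. It was −0.94 with a pseudocount of 0.1, −1.05 in the voom fit of recovered reads, −0.23 with quantile normalization and −0.27 with median centring. Single libraries also moved it, to −0.25 without PBS replicate 6, −0.74 without MC-21 replicate 3 and −0.20 without MC-21 replicate 4. The CV of 61.9% was close to the 57.1% that counting error alone gives at this depth.

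Sod2 and Gpx1 were the steadiest of the 10 genes. Sod2, the mitochondrial superoxide dismutase (ENSMUSG00000006818.4, chromosome 17, 13200705 to 13210985), had 40.4, 40.05, 36.7 and 31.0 RPKM in PBS and 39.7, 37.0 and 32.4 RPKM in MC-21. The groups covered nearly the same range, and the log2 difference was −0.02 (95% interval −0.37 to 0.32, limma adjusted p = 0.961). An identical run of 400 bases of its 3′ end lies elsewhere on mm9 chromosome 17 (13910136 to 13910535), so reads could be shared with that copy. Sod2 was 0.0777 to 0.104 times as high as Sod1, the cytosolic dismutase, in RPKM. The gap was smaller without division by length, at a mean of 141 RPM for Sod2 and 265 RPM for Sod1.

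Gpx1, the cytosolic glutathione peroxidase (ENSMUSG00000063856.5, chromosome 9, 108241607 to 108242671), had 1158, 1331, 1264 and 980 RPKM in PBS and 1252, 1145 and 1132 RPKM in MC-21. Only 47 to 67 genes of the table were higher in any library. The group means were 1183 ± 153 (SD, n = 4) and 1176 ± 65.7 RPKM (SD, n = 3), and the 95% interval of the log2 difference ran from −0.30 to 0.30 (limma adjusted p = 0.999). Gpx1 exceeded Gpx4, the peroxidase of membrane lipids, by 3.22 to 6.40 times in RPKM. The mean was 999.5 RPM for Gpx1, derived from its RPKM and annotated length, and 414 RPM for Gpx4, from recovered reads. Of all genes tested, 3.94% had a smaller CV than Gpx1 (9.73%) and 4.92% a smaller CV than Sod2 (10.2%), where the median gene had 25.3%. Abundant genes have less counting error, so this place is a description of the values and not of regulation.

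Over the 10 genes together, 8 differences were below 0 and 2 above it, with a median of −0.07 on the log2 scale (the plot of differences with intervals). All 9594 genes tested had a median of −0.15, with 69.4% below 0. After median centring of the libraries, 2 of the 10 (Srxn1 and Nqo1) lay below and 8 above 0, and with quantile normalization 5 and 5. The sign of the differences of Nfe2l2, Gclm, Txnrd1, Prdx1, Sod2 and Gpx1 thus changed with the scaling. By limma 0 of the 10 were called, against 60 of all genes tested (0.625%), and the voom fit of recovered reads called 0 of 9 as well. The 95% interval lay within a 2-fold change for 8 of the 10 and for 74.7% of all genes tested, and it included 0 for 9 of the 10 and for 85.3% of all. Effects smaller than these intervals could not be detected with 4 and 3 libraries.

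**Figure D3:**
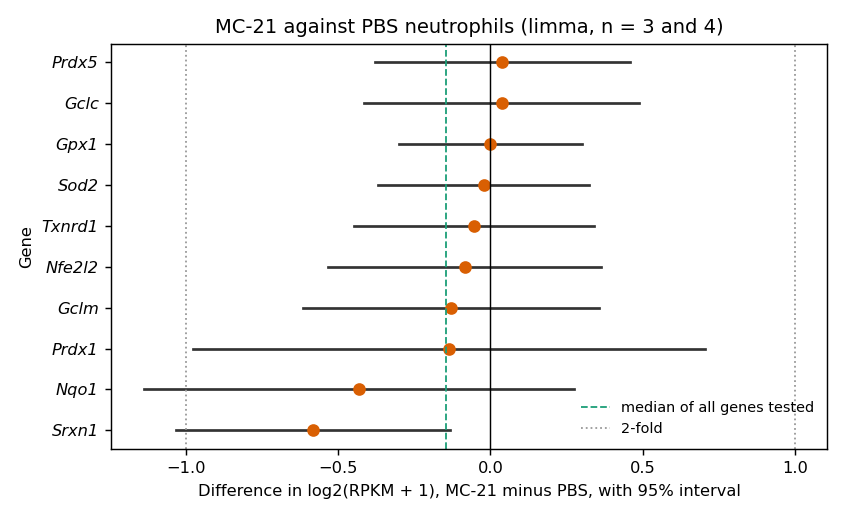
Log2 differences (MC-21 minus PBS, on log2(RPKM + 1)) of the 10 genes with 95% limma intervals, beside lines at 0, at a 2-fold change and at the median of all genes tested (−0.15). The interval of Srxn1 (−1.03 to −0.13) is the one that leaves out 0, and those of Nqo1 and Prdx1 are the widest.

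The genes that control NRF2 had 0 of 11 called by limma (0.625% of all genes tested) and 0 with an unadjusted p under 0.05 (14.7% of all genes tested). The median difference of the 11 was −0.06. Keap1, the sensor that keeps NRF2 low, had 7.61, 7.79, 7.15 and 11.1 RPKM in PBS and 6.51, 5.76 and 6.596 RPKM in MC-21. These groups did not overlap, and the log2 difference of −0.35 had an interval of −0.78 to 0.08 and an adjusted p of 0.433 (limma). Without PBS replicate 8 it was −0.23, and it was −0.18 with quantile normalization and −0.19 with median centring. Maff, a small MAF partner, had the largest positive difference (0.46, limma adjusted p = 0.356), with 9.37 ± 2.46 RPKM in PBS and 13.04 ± 1.54 in MC-21 (SD). Both sit beside Nfe2l2 levels that overlapped.

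Other known NRF2 targets lay mostly below 0 in MC-21, and 0 of 22 tested passed the adjusted test. Of these 22 genes, 21 had a lower and 1 a higher mean log2 level, 7 had an unadjusted p under 0.05 in the lower and 1 in the higher direction, and the median was −0.38. Over all genes tested 69.4% had a lower mean log2 level, 14.7% had an unadjusted p under 0.05 in either direction, 0.625% passed the adjusted test, and the median was −0.15. With median centring the split was 16 and 6 (median −0.22), and with quantile normalization 20 and 2 (median −0.25). Gsr, which reduces oxidised glutathione with NADPH, had 88.0, 82.7, 88.1 and 81.6 RPKM in PBS and 68.8, 65.8 and 47.8 RPKM in MC-21. Every MC-21 library was below every PBS library, with a log2 difference of −0.49 (95% interval −0.85 to −0.14, limma adjusted p = 0.211). Gclm and Gclc, whose products form the first enzyme of glutathione synthesis, overlapped between the groups. Gss, the glutathione synthetase, overlapped too, with a log2 difference of −0.57 (95% interval −1.10 to −0.05, limma adjusted p = 0.312).

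Hmox1, the heme oxygenase that is induced by heme through NRF2 and BACH1, had 190, 132, 311 and 137 RPKM in PBS and 95.2, 88.9 and 139 RPKM in MC-21. MC-21 replicate 4 lay above PBS replicates 6 and 8, so the groups overlapped, and the log2 difference was −0.77 (95% interval −1.43 to −0.11, limma adjusted p = 0.285), or −0.51 without PBS replicate 7. Blvrb, a biliverdin reductase of the same heme pathway, and Gstp1, a glutathione transferase, came closest to the threshold and are named because of their values. Blvrb had 62.1 ± 7.09 RPKM in PBS and 34.8 ± 4.24 in MC-21 (log2 difference −0.82, limma adjusted p = 0.0572), and Gstp1 had 341 ± 42.4 and 184 ± 41.7 RPKM (−0.90, limma adjusted p = 0.0610), both with SDs and without overlap. Macrophages express Hmox1 and Blvrb strongly, and the summed monocyte and macrophage markers were also lower in MC-21 (302 to 361 against 580 to 697 RPKM). Their part in these differences was not tested.

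The remaining targets named by rule varied in either direction. The ferritin chains Fth1 and Ftl1, which store iron, were among the most abundant transcripts, with log2 differences of −0.01 and −0.15 (limma adjusted p = 0.985 and 0.667). Slc7a11, the cystine carrier that feeds glutathione synthesis, was low in RPKM, at 1.06 in PBS and 1.03 in MC-21 (log2 difference −0.02). It had 11 to 63 reads per library and a mean of 9.67 RPM, as its RPKM is divided by a length of 9227 bases. Cbr3, a carbonyl reductase, had the largest positive difference (0.99, limma adjusted p = 0.213) from 9.50 ± 2.74 RPKM in PBS to 20.6 ± 8.69 in MC-21 (SD), with MC-21 replicate 3 inside the PBS range. Gsta1, a glutathione transferase abundant in hepatocytes, had the largest negative one (−1.40, limma adjusted p = 0.274), and PBS replicate 5 alone reached 40.3 RPKM against 2.51 to 16.4 RPKM in the other libraries. The summed hepatocyte markers overlapped between the groups. Hp alone had 682 to 868 of the 1105 to 1477 RPKM in PBS and 748 to 906 of the 1206 to 1319 RPKM in MC-21. Alb ran from 29.7 to 85.1 RPKM in PBS and from 23.0 to 53.3 in MC-21. The part of hepatocyte RNA in the Gsta1 values was not tested.

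**Figure D4:**
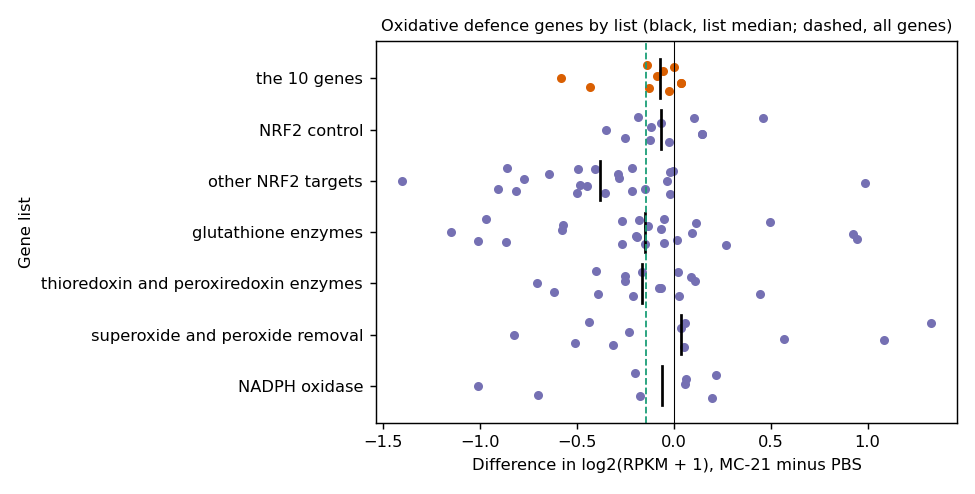
Log2 differences (MC-21 minus PBS) of every tested gene in the 10-gene set and in the 6 related gene lists, with a line for the median of each list. The median lies at −0.38 for other NRF2 targets and between −0.17 and 0.04 for the remaining lists, where the median of all genes tested is −0.15.

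Enzymes of neighbouring pathways had medians near that of all genes. Of 23 glutathione enzymes tested, 16 lay below and 7 above 0 (median −0.15) and limma called 0 (0.625% of all genes tested). An unadjusted p under 0.05 was found in 3 lower and 1 higher (14.7% of all genes tested, in either direction). The split around 0 was 12 and 11 with quantile normalization and 11 and 12 with median centring. Mgst3, a membrane glutathione transferase, had the largest negative difference (−1.15, limma adjusted p = 0.186) at 2.73 ± 1.22 RPKM in PBS and 0.707 ± 0.617 in MC-21. It rested on 3, 4, 5 and 11 reads in PBS and 0, 1 and 2 reads in MC-21. Ggt1, which breaks down extracellular glutathione, had the largest positive difference (0.95, limma adjusted p = 0.438). The Ggt1 difference was 0.42 without MC-21 replicate 4 and 1.49 without MC-21 replicate 3, and that of Mgst3 was −2.37 with a pseudocount of 0.1. In this list 2 genes lacked overlap with MC-21 lower and 1 with MC-21 higher (13.3% of all genes tested, in either direction). Among them were Ggt5 (0.92, limma adjusted p = 0.0822) and Gpx7 (−0.97, limma adjusted p = 0.116), named because of their values. Ggt5 had 11.4 to 19.6 RPKM in PBS and 24.3 to 30.2 in MC-21. Gpx7 rested on 32, 22, 27 and 29 reads in PBS and 18, 5 and 10 reads in MC-21. Of 15 further thioredoxin and peroxiredoxin genes tested, 10 lay below and 5 above 0 (median −0.17), and limma called 0 (0.625% of all genes tested). An unadjusted p under 0.05 was found in 2, both lower (14.7% of all genes tested, in either direction). Under either other scaling 8 lay below and 7 above 0, with a median of −0.0957 for quantile normalization and −0.0023 for median centring. The extremes of these 15 genes were Txnrd2, the mitochondrial reductase (−0.71, limma adjusted p = 0.386), and Sesn2, a stress-induced sestrin (0.44, limma adjusted p = 0.573). Both overlapped between the groups. Without MC-21 replicate 4 (1.70 RPKM) the Txnrd2 difference was −0.28. Without MC-21 replicate 3 (7.34 RPKM) that of Sesn2 was 0.0226, and without replicate 4 it was 0.79.

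Genes that remove superoxide and peroxide were split, with 5 below and 6 above 0 among 11 tested. Limma called 0 (0.625% of all genes tested). An unadjusted p under 0.05 was found for 2, both higher (14.7% of all genes tested, in either direction). These 2 were the metallothioneins Mt1, named because of its values, and Mt2, which bind zinc and copper and scavenge radicals. Mt2 had 917, 432, 501 and 489 RPKM in PBS and 1140, 863 and 2800 RPKM in MC-21, with a log2 difference of 1.33 (limma adjusted p = 0.182). Mt1 did not overlap, at 652 to 965 RPKM in PBS and 1124 to 2989 RPKM in MC-21 (1.09, limma adjusted p = 0.165). MC-21 replicate 4 was the highest library for both, and without it the differences were 0.83 for Mt2 and 0.67 for Mt1. The same library was far below the others for Selenop, a secreted selenoprotein, at 66.9 RPKM against 518 to 836 RPKM, which makes up the largest negative difference of the list (−0.82, limma adjusted p = 0.649); without replicate 4 of MC-21 the Selenop difference was 0.36.

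The NADPH oxidase, the source of superoxide in neutrophils, gave 4 genes below and 4 above 0 of 8 tested. Limma called 0 of them (0.625% of all genes tested), and 2 had an unadjusted p under 0.05, both lower (14.7% of all genes tested, in either direction). Cybb, its catalytic subunit, had 15.99, 14.3, 19.5 and 11.6 RPKM in PBS and 6.13, 9.13 and 6.06 RPKM in MC-21. The groups did not overlap and the log2 difference was −1.01 (95% interval −1.50 to −0.52, limma adjusted p = 0.0791). Ncf4, a cytosolic subunit, had the largest positive difference (0.22, limma adjusted p = 0.511), which was 0.14 without PBS replicate 5, 0.15 without MC-21 replicate 4 and 0.38 with median centring. Macrophages also express Cybb, and their summed markers separated the groups in the same direction. Their part in the Cybb values was not tested. Sod2, the mitochondrial dismutase, and Gpx1, the cytosolic glutathione peroxidase, had differences of −0.02 and −0.00.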

How the data were processed

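The authors sequenced 3′ RNA-seq libraries, mapped reads to mm9 with HISAT 0.1.5 and SAMtools, and deposited RPKM values per gene made in Partek 6.6. The gene annotation, the counting of molecular barcodes and the treatment of reads with several matches are not given in the sources used here. Differences were fitted on log2(RPKM + 1) with limma 3.58.1 (trend) in R 4.3.3 over the 9594 genes that averaged 1 RPKM or more, with Benjamini-Hochberg adjustment over all of them. For single values and ratios, a two-sided exact permutation test was used, which has 35 arrangements of 4 and 3 libraries. P-values measure the spread between libraries of 1 liver each. Whole reads, within 0.05 of a read, were recovered for 90.9% of the genes tested and were fitted with voom. Poisson intervals cover counting error only, and whether the recovered reads are independent molecules is not known. Copies were sought by aligning the last 400 bases of transcripts to mm9 with minimap2 2.31. Promoter sequences came from RefSeq (GRCm38.p6), coordinates of genes from GENCODE M1 (mm9). The fit was tested on simulated data. Tables and plots used Python 3.11.15, pandas 2.3.3, scipy 1.17.1 and matplotlib 3.10.9.

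The members and the gene lists were chosen with earlier results of these data known. The genes named are the 10 members, the largest rise and fall of each list and any gene called there, and Hmox1, Slc7a11, Gsr, Txn1, Ftl1, Fth1, Cybb and Keap1. Sod1 and Gpx4 are given only as the lower term of a ratio. Blvrb, Gstp1, Mt1, Gss, Ggt5 and Gpx7 are named because of their values. The alternatives were a pseudocount of 0.1, no filter, a filter at an average of 5 RPKM, quantile normalization, median centring, limma without a trend or without moderation, leaving out each library and, added after the data were seen, voom on recovered reads.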

Additional observations from a re-analysis of the deposited data

How the results depend on the processing

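For the 10 genes and 21 of the others named, 455 values were recomputed. Of these, 414 kept their direction and their side of the adjusted threshold, 3 passed it and 38, in 13 genes, changed sign. With median centring, the log2 difference was 0.0346 for Gclm, 0.16 for Gpx1, 0.0796 for Nfe2l2, 0.0282 for Prdx1, 0.14 for Sod2, 0.11 for Txnrd1, 0.16 for Fth1, 0.0180 for Ftl1, 0.14 for Slc7a11 and 0.13 for Txn1. With quantile normalization it was 0.0189 for Prdx1, 0.0586 for Sod2, 0.0520 for Txnrd1 and 0.20 for Slc7a11. Leaving out 1 library at a time gave −0.0657 to 0.17 for Gclc, −0.0878 to 0.0593 for Gpx1, −0.24 to 0.11 for Nfe2l2, −0.46 to 0.11 for Prdx1, −0.0860 to 0.17 for Prdx5, −0.10 to 0.0560 for Sod2, −0.23 to 0.0897 for Txnrd1, −0.0845 to 0.0503 for Fth1, −1.46 to 0.36 for Selenop, −0.28 to 0.21 for Slc7a11 and −0.11 to 0.0829 for Txn1. Srxn1 stayed between −0.70 and −0.42, with adjusted p from 0.219 to 0.494. The 10 genes had 0 calls under every alternative. Of them, 0 lacked overlap with quantile normalization and with centring, and 1 to 2 with a library left out (Gclm and Srxn1 without PBS replicate 5, Nqo1 and Srxn1 without MC-21 replicate 3, Txnrd1 and Srxn1 without MC-21 replicate 4). The share of all genes tested without overlap was 13.3% with all 7 libraries. It was not computed for these alternatives, so their counts have no background. Among the other lists' genes, 1 was called with a mean of at least 5 RPKM (Blvrb, adjusted p = 0.0470) and 0 to 1 with a library left out, namely Blvrb without PBS replicate 6 (adjusted p = 0.0435) and Gstp1 without MC-21 replicate 3 (adjusted p = 0.0429). Of all genes tested, 60 were called, 6 with no filter and 4 without moderation, and 9 (without PBS replicate 8) to 102 (without PBS replicate 6) with a library left out. The cause was not tested. No paired analysis was possible because the groups share no replicate numbers. Of the 10 genes, Nqo1 and Prdx1 had the largest counting error, a CV of 57.1% and 18.4%.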
